A study of Mus musculus with 8 samples.

Results

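T follicular helper (Tfh) and T helper 1 (Th1) cells, sorted as memory CD4 T cells from Rictor-null mice, were compared on microarrays at day 60 after infection with LCMV Armstrong, a virus strain that mice clear. The comparison used the 2 Rictor-null Tfh arrays and the 2 Rictor-null Th1 arrays, 4 of the 8 arrays of the series, chosen by their labels. The other 4 arrays held wild-type (WT) Tfh and Th1 cells, 2 arrays each, and served here as the same lineage comparison in mice with Rictor. Each array held spleen RNA pooled from at least 10 mice, and all 4 groups had been infected with the same virus and sampled on the same day. For strain, age, sort gates, the driver of the deletion and the deleted part of Rictor, the labels give no entry. They do not say whether both pools of a group came from separate cohorts, so p values measure the spread between such pools, which may be technical.

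The kinase mTOR works in a pair of complexes, and the second of them, mTOR complex 2, needs Rictor to assemble and phosphorylates AKT. Tfh cells express the chemokine receptor CXCR5 and the repressor BCL6, reside near B cell follicles and help B cells. Th1 cells are driven by the factor T-bet (Tbx21) and act through interferon gamma, and both lineages leave memory cells after an acute viral infection.

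All values are signals of the brightest probe set of a gene. Differences are Tfh minus Th1 on the scale of log2(signal + 32), which understates the change of dim genes. Their standard error (SE) comes from a fit that pools the spread of all groups, with n = 2 arrays per group. Between replicate arrays, the typical standard deviation was 0.0661 in Rictor-null Tfh, 0.046 in Rictor-null Th1, 0.033 in WT Tfh and 0.0466 in WT Th1. Pooling with the tighter WT Tfh arrays can make the SE and p values of the Rictor-null comparison too small. A gene was called when its limma p, adjusted over 11217 genes, was under 0.05. Replicate arrays correlated across genes at r = 0.9946 in Rictor-null Tfh and 0.9976 in Rictor-null Th1, and Tfh with Th1 arrays at 0.9892 to 0.9932; genes are not independent replicates. On the third principal component (18.3% of the variance) Rictor-null Tfh replicate 2 lay at -12.38 and replicate 1 at 1.09. WT Th1 arrays lay at -6.49 and -0.6, WT Tfh arrays at 5.1 and 2.84, and Rictor-null Th1 arrays at 3.96 and 6.47. Rictor itself (gene ID 78757) had signals of 563.3 and 576.1 in Rictor-null Tfh, 492.8 and 474.2 in Rictor-null Th1, 560.3 and 563.3 in WT Tfh, and 468.3 and 556.4 in WT Th1. Where its probe set lies relative to the deletion is unknown here, so the signal does not check the genotype.

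The question of the comparison was which lineage difference is present in cells labelled as lacking mTOR complex 2. In Rictor-null cells 1090 of 11217 genes (9.72%) were called, 367 (3.27%) higher in Tfh and 723 (6.45%) higher in Th1 cells. Eomes, Gzmk, Cxcr5 and Myb led the genes higher in Tfh cells, and Igfbp4, Pdlim4, Ahr and St8sia6 those higher in Th1 cells. Of the called genes 20 differed by more than 1 log2, 9 of them higher in Tfh and 11 higher in Th1. The unadjusted p was under 0.05 for 2738 genes, and the arrays of both lineages did not overlap for 49.3% of all genes. The share of calls that were higher in Tfh was 33.7%, but 44.5% after quantile normalization and 54% with each array set to a common median, so the balance of directions depended on the scaling. The count was 387 without Rictor-null Th1 replicate 1, 534 without Rictor-null Th1 replicate 2 and 1641 without Rictor-null Tfh replicate 1. It was 595 in a fit to the 4 Rictor-null arrays alone and 660 with array weights.

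**Figure D1:**
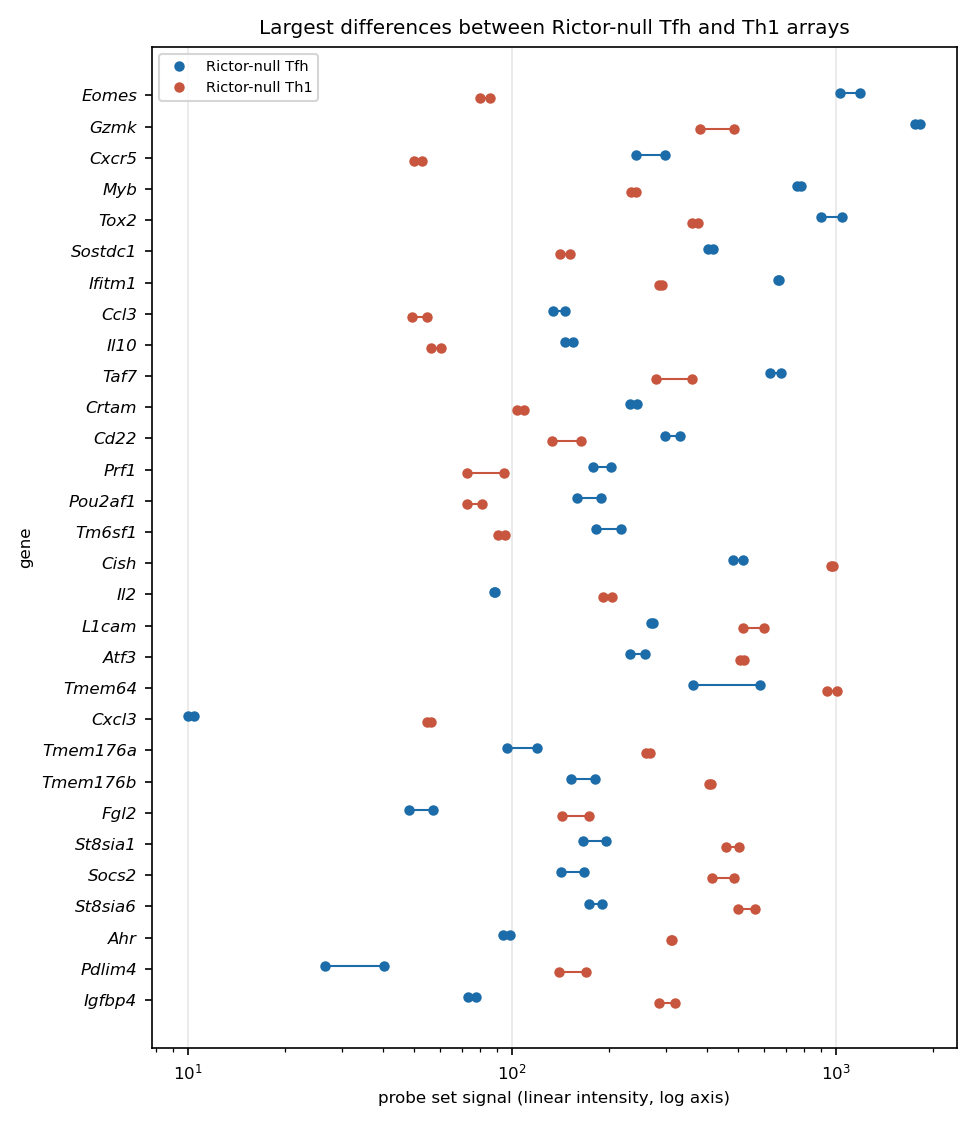
Probe set signal (linear intensity, log axis) of the 15 genes with the largest difference in each direction, with a point for each Rictor-null array and a line between the 2 arrays of a group. For every gene shown the Tfh arrays and the Th1 arrays lie apart, as the choice of genes required; Eomes spans 79.71 to 1184.

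The largest difference was that of Eomes (gene ID 13813, chromosome 9, 118478186 to 118486132, GRCm38), a T-box transcription factor best known from CD8 T and NK cells. Its signal was 1184 and 1030 in Rictor-null Tfh and 85.36 and 79.71 in Rictor-null Th1 cells. The arrays were far apart, with a difference of 3.31 ± 0.075 log2 (SE), a 9.92-fold difference of signal + 32 (adjusted p = 2.01e-09). Gzmk (gene ID 14945, chromosome 13, 113171630 to 113180965), which encodes granzyme K, had signals of 1823 and 1759 in Tfh and 379.7 and 484.7 in Th1 cells, a difference of 1.98 ± 0.092 (adjusted p = 6.96e-07). Myb (gene ID 17863, chromosome 10, 21124930 to 21160984), a transcription factor of lymphocyte progenitors and memory T cells, had 760 and 779.9 against 233.2 and 242.2, or 1.57 ± 0.056 (adjusted p = 1.41e-07). For these 3 genes the Th1 arrays held less than the lowest Tfh array in either replicate. Other probe sets gave 3.48 for Eomes, and 1.14 and 1.55 for Myb, each also called.

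Gzmk and Myb were the only genes among the 30 with the largest differences whose 250 bases before the transcription start held the T-box motif TCACACC on either strand (GGTGTGA on the other). Of the 30 genes 21 had a window in the table of promoters. The motif is the kind bound by T-box factors such as EOMES and T-bet, and the stretches are shown because the leading gene encodes such a factor. Sequences are from RefSeq (GRCm38.p6), minus strand of the chromosome, 5′ to 3′, with the motif in capitals.
Gzmk, chr13:113180966-113181215: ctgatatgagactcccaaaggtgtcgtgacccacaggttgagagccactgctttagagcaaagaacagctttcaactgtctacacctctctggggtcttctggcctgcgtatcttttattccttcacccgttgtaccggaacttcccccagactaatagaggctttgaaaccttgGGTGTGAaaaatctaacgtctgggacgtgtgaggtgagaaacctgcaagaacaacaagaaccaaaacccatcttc
Myb, chr10:21160985-21161234: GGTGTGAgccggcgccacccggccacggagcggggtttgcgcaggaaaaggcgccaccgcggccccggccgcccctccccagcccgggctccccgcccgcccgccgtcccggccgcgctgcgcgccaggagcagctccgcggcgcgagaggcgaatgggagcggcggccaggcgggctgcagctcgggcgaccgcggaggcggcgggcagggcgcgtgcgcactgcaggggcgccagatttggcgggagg

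The match began 75 bases before the start of Gzmk and 250 bases before that of Myb. It was present in 3.33% of all 32851 windows, in 2.94% of the windows of genes tested, in 4.44% of 383 windows of genes higher in Rictor-null Tfh and in 2.06% of 776 windows of genes higher in Rictor-null Th1 cells. A second motif searched on these windows, TTCNNNGAA, which STAT factors bind, was in 7.02% of all windows, 5.79% of those of genes tested, 6.27% of those of genes higher in Tfh and 6.06% of those higher in Th1. A match is a stretch of letters and not a measured binding site.

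Cxcr5 and Bcl6, which define Tfh cells, differed in the direction of the label. Cxcr5 (chromosome 9) had signals of 241.1 and 296.5 in Rictor-null Tfh and 52.72 and 50.04 in Rictor-null Th1 cells, a difference of 1.84 ± 0.086 (adjusted p = 6.96e-07). CXCR5 is a usual sort marker of these cells, so this difference checks the label and is no finding. Of 14 regulators of Tfh cells tested, 7 were higher in Tfh and 1 in Th1 cells, against 3.27% and 6.45% of all genes. Their median difference was 0.26 against -0.012 over all genes. Bcl6, the repressor that defines the lineage, had 192.3 and 186.1 against 93.03 and 92.01 (0.83 ± 0.055, adjusted p = 8.33e-06). The arrays of both lineages did not overlap.

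Tox2, a nuclear factor of the TOX family, had 897.1 and 1045 against 376.1 and 360.7 (1.32 ± 0.077, adjusted p = 3.96e-06), and Tox itself 355.4 and 375.2 against 247.9 and 201.7 (0.64 ± 0.099, adjusted p = 0.00275). The coactivator gene Pou2af1 differed by 0.92, Cebpa by 0.67 and Ascl2, an activator of Cxcr5, by 0.44, although Ascl2, at 43.09 and 40.49 against 24.39 and 20.61, passed the filter only through the Rictor-null Tfh arrays. Without Ascl2 6 of 13 regulators were higher in Tfh cells. These still include Cebpa, which exceeded the array median only on Tfh arrays, of both genotypes. It too passed the filter through the lineage where it was high, so its value is a description. Id3, an inhibitor of E proteins, was called at 0.31 (adjusted p = 0.0421), but this call ended under 13 of 21 alternatives. Among these were no filter, another pseudocount, array weights and a replicate block. Others left out Rictor-null Tfh replicate 2, either Rictor-null Th1 array or either WT Tfh array. The brightest probe set of Maf, which promotes Il21, was not called (0.20 ± 0.149, adjusted p = 0.45), with signals of 2091 and 1481 against 1511 and 1547, while 2 of its 5 other probe sets were called higher in Tfh (0.69 and 0.21). The brightest probe set of Lef1, a factor of early Tfh differentiation, gave 0.16 (adjusted p = 0.178), while another was called at 1.11 ± 0.074 (adjusted p = 3.96e-05) with a difference between genotypes of 0.99 (adjusted p = 0.00507). Batf, Irf4, Stat3 and Bach2 did not pass, with values of -0.11 to 0.21. Batf was called with a common median per array (0.25, adjusted p = 0.0424) and without Rictor-null Tfh replicate 1 (0.28, adjusted p = 0.0426). Klf2, a factor of T cell egress that opposes Tfh fate, was higher in Th1 cells (-0.28, adjusted p = 0.032). That call ended under 10 of 21 alternatives. Among these were quantile normalization (limma adjusted p = 0.0692), no filter, array weights and a replicate block. Others left out Rictor-null Th1 replicate 1, Rictor-null Tfh replicate 1 or either WT Tfh array.

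Of 25 surface and secreted genes of Tfh cells, 8 were higher in Tfh and 6 higher in Th1 cells, against 3.27% and 6.45% of all genes. The median was 0.14, and the 8 include Cxcr5, a usual sort marker. Sostdc1, whose secreted product blocks BMP and Wnt ligands, had 418.3 and 403.7 against 141.2 and 151.2 (1.31 ± 0.058, adjusted p = 6.45e-07). Pdcd1, which encodes PD-1, had 211.7 and 237.8 against 108 and 117.6 (0.83 ± 0.070, adjusted p = 4.4e-05). The cytokine gene Il21 had 353.7 and 318.9 against 196.1 and 223 (0.61 ± 0.070, adjusted p = 0.000344). The CD30 ligand gene Tnfsf8 (0.71) and Sh2d1a (0.64), whose product SAP is needed for contact with B cells, were higher in Tfh cells too. The costimulator gene Icos was not called (0.14 ± 0.059, adjusted p = 0.187). Members higher in Th1 cells were Cd200 (-0.48), Il4 (-0.42), P2rx7 (-0.41), Cd83 (-0.27), Btla (-0.25) and Cd40lg (-0.25). With Rictor-null Th1 replicate 1 left out, 7 members were higher in Tfh and 3 in Th1 cells. The calls of Btla and Cd40lg were among those that ended there (adjusted p = 0.126 and 0.136), and both also ended without Rictor-null Th1 replicate 2 (0.061 and 0.0763). That of Cd40lg ended too when WT Tfh replicate 1 (0.0503) or 2 (0.0502) or Rictor-null Tfh replicate 2 (0.0577) was left out.

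Tbx21, Ifng and Cxcr3, which define Th1 cells, were not called between the lineages. Tbx21, the T-bet gene (chromosome 11, 97098007 to 97115331), had signals of 464.7 and 439.1 in Rictor-null Tfh and 448.5 and 462.5 in Rictor-null Th1 cells (-0.01 ± 0.056, adjusted p = 0.937). The arrays of both lineages overlapped. Ifng, the interferon gamma gene, had 1589 and 1564 against 1421 and 1477 (0.12 ± 0.057, adjusted p = 0.232), and the chemokine receptor gene Cxcr3 had 1987 and 2214 against 1867 and 1718 (0.22 ± 0.071, adjusted p = 0.0761). Il12rb2, a chain of the receptor for interleukin 12, was below the signal filter at 18.53 to 23.08. Of 10 tested regulators of Th1 cells 3 were higher in Th1 and 1, Eomes, in Tfh cells, against 6.45% and 3.27% of all genes. These 3 were Id2 (-0.56, adjusted p = 0.0281), Prdm1, which encodes BLIMP-1 (-0.28, adjusted p = 0.0147), and Bhlhe40 (-0.25, adjusted p = 0.0196). With Rictor-null Th1 replicate 1 left out none of them stayed called (adjusted p = 0.132, 0.122 and 0.0974). Id2 and Bhlhe40 also lost the call without Rictor-null Th1 replicate 2 (0.151 and 0.0985), Id2 without Rictor-null Tfh replicate 2 (0.107), Prdm1 without the same array (0.0514) and Bhlhe40 without Rictor-null Tfh replicate 1 (0.0526). Runx3, Stat4, Hopx, Zeb2 and Irf1 did not pass, with -0.26 to 0.11. Zeb2, a factor of effector cells, had -0.26 (adjusted p = 0.0724) and was called without Rictor-null Tfh replicate 2 (-0.34, adjusted p = 0.0433) and without WT Th1 replicate 1 (0.0454) or 2 (0.045). Its other probe sets gave 0.24 and -0.02, not called.

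Among 22 surface and secreted genes of Th1 cells, 6 were higher in Th1 and 3 in Tfh cells, against 6.45% and 3.27% of all genes. Il2 (chromosome 3) had signals of 88.25 and 88.98 in Rictor-null Tfh and 191.7 and 204 in Rictor-null Th1 cells (-0.93 ± 0.062, adjusted p = 8.33e-06). The 3 genes higher in Tfh cells all encode chemokines. Ccl3 had 146.3 and 133.7 against 54.83 and 49.08 (1.03 ± 0.064, adjusted p = 4.59e-06), Xcl1 87.22 and 81.98 against 38.05 and 41.09 (0.70), and Ccl4 292 and 322.9 against 215.6 and 184.1 (0.55).

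All cytotoxic granule genes that were called were higher in Tfh cells. The median of the list was 0.07, and 7 members had an unadjusted p under 0.05. Among these was Ctsc, which was higher in Th1 cells and not called (-0.16 ± 0.063, limma adjusted p = 0.152). By limma 6 of 18 tested members were higher in Tfh and 0 higher in Th1 cells, against 3.27% and 6.45% of all genes. Besides Gzmk these included Prf1, the perforin gene, with 178 and 201.7 against 94.53 and 72.82 (0.94 ± 0.086, adjusted p = 7.44e-05). Another probe set of Prf1 gave 0.15 without passing. Gzma, which encodes granzyme A, had 1633 and 1472 against 980.4 and 997.6 (0.63 ± 0.069, adjusted p = 0.000255). Cst7, an inhibitor of granule proteases, differed by 0.49 and Nkg7, a granule membrane gene, by 0.37. Crtam, a receptor of cytotoxic CD4 T cells, had 243.9 and 231.8 against 103.9 and 108.9 (0.96 ± 0.056, adjusted p = 3.96e-06). The SLAM receptor gene Slamf7 had 117.5 and 116.1 against 54.21 and 50.56 (0.82).

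The genes just given are shared with NK and CD8 T cells, whose defining markers were measured beside them. Cd8a had 44.81 and 43.57 in Tfh and 44.36 and 39.11 in Th1 cells, and Cd8b1 58.34 and 62.51 against 56.94 and 52.83, neither called. The NK cell genes Ncr1 (25.56 to 28.85), Tyrobp (22.94 to 26.57) and Klra8 (3.71 to 4.21) were below the filter on all Rictor-null arrays, under the median signal of an array (35.7 to 37.7). The summed signal of 5 NK cell markers was 1269 and 1119 in Tfh and 174 and 166 in Th1 cells, of which Eomes made up nearly all in Tfh. Of 7 NK lectin-like receptor genes tested, Klrc1 was higher in Tfh (0.61), and Klre1 (-0.42) and Klrb1f (-0.41) were higher in Th1 cells. The shares over all genes were 3.27% and 6.45%. The Klre1 call ended without Rictor-null Th1 replicate 2 (adjusted p = 0.0655).

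The 8 defining markers of CD4 T cells summed to 19633 and 20682 in Tfh and 20739 and 19546 in Th1 cells. Those of B and plasma cells (10 genes) summed to 522 and 583 against 410 and 363, and Cd22, with 298 and 331.1 against 163.9 and 132.8 (0.95 ± 0.087), made up most of that difference. The B cell genes Ms4a1 (17.21 to 25.01) and Cd79a (19.08 to 28.05) were below the filter. The 11 myeloid markers summed to 404 and 431 against 333 and 319. Of 6 tested members 3 were higher in Tfh cells, against 3.27% of all genes: Cd68 (0.68), Itgax (0.28) and Flt3 (0.20). The Itgax call ended when either Rictor-null Th1 array was left out (adjusted p = 0.0567 and 0.0693), and with replicate 1 left out only 1 of the 3, Cd68, stayed called. Regulatory T cell markers summed to 3243 and 3056 against 3194 and 3294. Foxp3, their defining factor, was below the filter at 27.47 to 41.55, while Ikzf2 was higher in Tfh (0.59) and Itgae (-0.84) and Nrp1 (-0.69) were higher in Th1 cells. What part these markers play in the lineage differences was not tested. In sorted bulk samples a smaller number of cells of a type and less RNA per cell cannot be told apart.

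**Figure D2:**
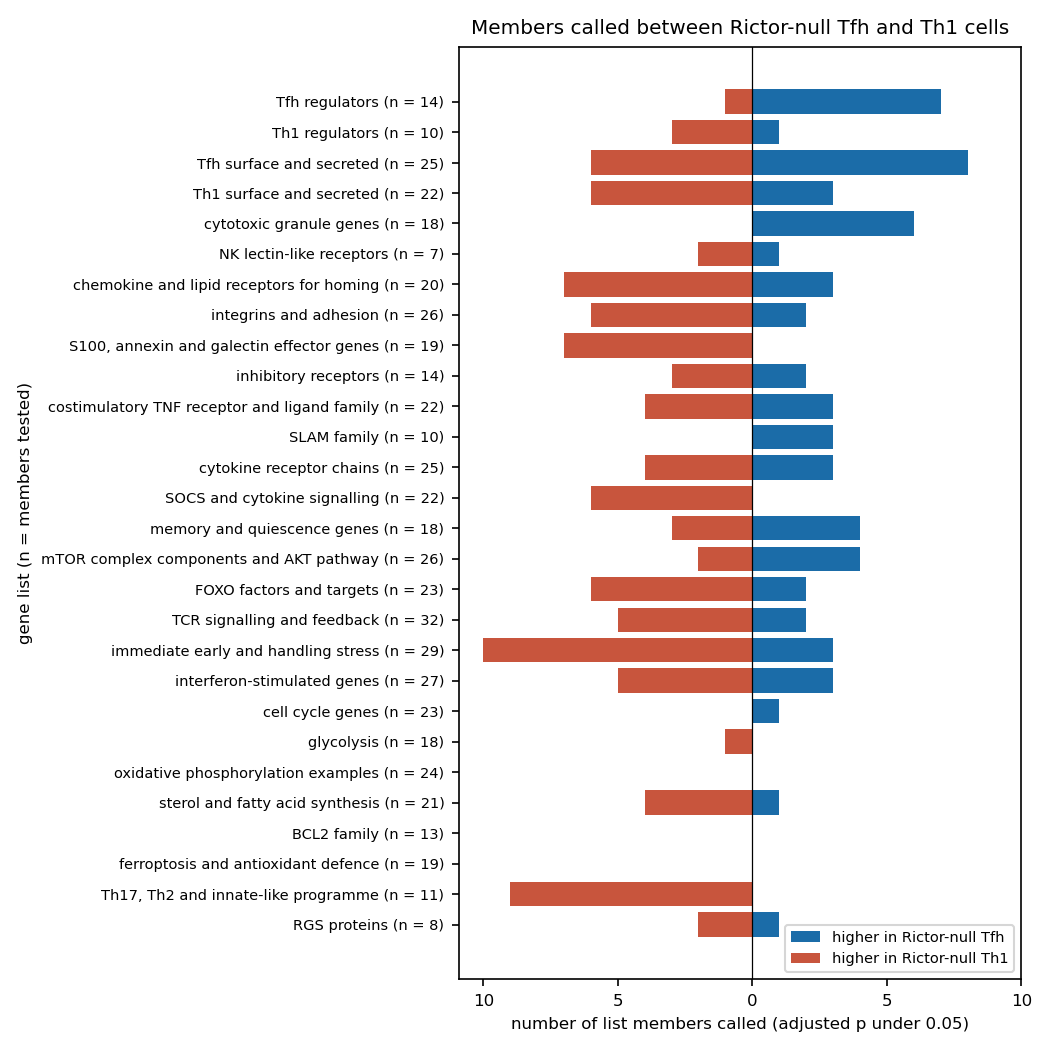
Number of list members called between Rictor-null Tfh and Th1 cells, for each of 28 gene lists; blue bars to the right count members higher in Tfh and red bars to the left members higher in Th1 cells, with the number tested after each name. The longest bars are 10 immediate early and handling stress genes and 9 genes of the Th17, Th2 and innate-like programme, both higher in Th1 cells. Over all genes 3.27% were higher in Tfh and 6.45% in Th1 cells.

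Among Th17, Th2 and innate-like genes, the median was -0.47. By limma 9 of 11 tested members were higher in Th1 and 0 higher in Tfh cells, against 6.45% and 3.27% of all genes. All 9 had an unadjusted p under 0.05. The count was 7 without Rictor-null Th1 replicate 1. Ahr (gene ID 11622, chromosome 12, 35497979 to 35534989), the aryl hydrocarbon receptor gene, had signals of 94.26 and 99.07 in Tfh and 310.8 and 311.8 in Th1 cells (-1.42 ± 0.070, adjusted p = 1.22e-06). Tmem176b had 152.3 and 180.2 against 406.7 and 412.4 (-1.16 ± 0.071), and Tmem176a 119.6 and 96.94 against 267.2 and 259.8 (-1.08 ± 0.079). These 2 genes encode ion channel-like membrane proteins, and their annotated spans overlap on opposite strands of chromosome 6 (48833811 to 48845948 and 48841483 to 48845364). The Th2 factor gene Gata3 had 471 and 431.2 against 837.6 and 759.7 (-0.78 ± 0.068, adjusted p = 4.91e-05). Zbtb16, which encodes PLZF, was called (-0.36) at signals up to 44.58. Pparg, a nuclear receptor gene (-0.80), and Il17a exceeded the array median only on both Rictor-null Th1 arrays, so they passed the filter through the group where they were high. Without Pparg and Il17a 7 of 9 members were called. These 7 still include Zbtb16, which exceeded the array median only on Th1 arrays, of both genotypes. It too passed the filter through the lineage where it was high, so its value is a description. Of the other called members, Ccr6 (-0.46) belongs to Th17 and Il4 (-0.42) to Th2 cells. The value of Il17a (-0.47), a Th17 gene, is a description because of how it passed the filter.

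In the list of SOCS and cytokine signalling genes 6 of 22 were higher in Th1 and 0 in Tfh cells by limma. The shares over all genes were 6.45% and 3.27%. An unadjusted p under 0.05 was found for 9, and the median was -0.04. Socs2 had 141.4 and 166.9 in Tfh and 483.5 and 415.7 in Th1 cells (-1.37 ± 0.082, adjusted p = 4.26e-06). Cish had 515.4 and 482.5 against 968.8 and 979.4 (-0.92 ± 0.061, adjusted p = 8.33e-06). Both encode feedback inhibitors that STAT5 induces. The kinase gene Pim3 differed by -0.31. The remaining 3 called were Socs4, Stat6 and Socs5. The calls of Socs4 and Stat6 ended without Rictor-null Th1 replicate 1 (adjusted p = 0.112 and 0.125), and that of Socs4 also without Rictor-null Th1 replicate 2 (0.0841) or Rictor-null Tfh replicate 2 (0.0733). Without Rictor-null Th1 replicate 1 the list held 3 called members, Socs2, Cish and Pim3.

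The largest difference toward Th1 cells was that of Igfbp4 (gene ID 16010, chromosome 11, 99040005 to 99052655), whose product binds insulin-like growth factors. Its signal was 77.29 and 73.31 in Tfh and 319.6 and 284.9 in Th1 cells (-1.64 ± 0.073, 3.11-fold, adjusted p = 6.45e-07). Of its 5 other probe sets 4 were negative and 3 of these were called. Averaged over its probe sets the difference was -0.77. In WT cells the brightest probe set of Igfbp4 differed by -2.21 ± 0.073, so its lineage difference was smaller in Rictor-null cells. The difference between genotypes, Rictor-null minus WT, was 0.57 ± 0.103 (limma adjusted p = 0.0257) and stayed called under 9 of 20 alternatives. Pdlim4, a cytoskeletal adaptor gene, had 26.59 and 40.37 against 169.6 and 139.5 (-1.51 ± 0.101). The sialyltransferase genes St8sia6 (-1.40 ± 0.074) and St8sia1 (-1.27 ± 0.086) were higher in Th1 cells, with St8sia6 at 172.9 and 189.7 against 562.7 and 497.5, and both other probe sets of St8sia6 were called in the same direction. The adhesion molecule gene L1cam had 272 and 268.6 against 602.1 and 517.8 (-0.97 ± 0.071).

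Of 20 homing receptor genes, 7 were higher in Th1 and 3 in Tfh cells, with a median of -0.17. For this and the next lists, the shares over all genes were 6.45% higher in Th1 and 3.27% higher in Tfh. The gut homing receptor gene Ccr9 had 66.8 and 69.79 in Tfh and 155.7 and 144.4 in Th1 cells (-0.86 ± 0.059, adjusted p = 9.44e-06), and Ccr7, the receptor for entry into the T cell zone, had 535.5 and 527.8 against 809.8 and 797.4 (-0.57 ± 0.055, adjusted p = 0.000111). Besides Cxcr5, the oxysterol receptor gene Gpr183 (0.49) and Gpr18 (0.57) were higher in Tfh cells. Of 26 integrin and adhesion genes 6 were higher in Th1 and 2 in Tfh cells (5 and 0 without Rictor-null Th1 replicate 1). The integrin genes Itgae (66.55 and 67.07 against 152.2 and 137.5), Itgb3 (-0.70), Itga1 (-0.45) and Itgb1 (-0.41) were among the 6. Another probe set of Itgb3 gave 0.008 and was not called. Of 19 S100, annexin and galectin genes 7 were higher in Th1 and 0 in Tfh cells by limma, and 12 had an unadjusted p under 0.05. Capg (-0.40) and Anxa5 (-0.40) were examples. The count was 5 after quantile normalization, 4 with a common median, and 3 without Rictor-null Tfh replicate 2 or without Rictor-null Th1 replicate 1.

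Immediate early and handling stress genes respond to stimulation and to the handling of cells. They were higher in Th1 cells in 10 of 29 members and in Tfh cells in 3, against 6.45% and 3.27% of all genes. Their median was -0.16. Atf3 had 231.1 and 257.5 against 504.3 and 521 (-0.98 ± 0.066, adjusted p = 8.64e-06), the heat shock gene Hspa1a 238.5 and 200.1 against 356.9 and 393.1 (-0.70 ± 0.098), and Zfp36, whose product destabilises cytokine mRNAs, 1749 and 1698 against 2862 and 2661 (-0.67 ± 0.059). Fosl2 (-0.59) and Fosb (-0.41) of the AP-1 family were higher in Th1 cells as well. Without Rictor-null Th1 replicate 1 the counts were 5 and 0. Among FOXO factors and targets 6 of 23 were higher in Th1 cells, including the cell cycle inhibitor gene Cdkn1a (-0.64) and Trib2 (-0.44), and 2 in Tfh cells (Eomes and Bcl6). Another probe set of Trib2 gave -0.05 and was not called. The count toward Th1 was 3 without Rictor-null Th1 replicate 1.

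Of 26 components of the mTOR complexes and the AKT pathway, 4 were higher in Tfh and 2 in Th1 cells, against 3.27% and 6.45% of all genes. The median was 0.03. Among the 4 was Inpp4b (0.66, adjusted p = 0.0334), whose other probe set was called in the other direction (-0.35, adjusted p = 0.0296). Its call ended with the mean over probe sets. Without Rictor-null Th1 replicate 1 the counts were 1 and 1, and without Rictor-null Tfh replicate 2 they were 2 and 2. Prr5l, whose product binds mTOR complex 2, had 116.3 and 129.2 in Tfh and 230.2 and 187.7 in Th1 cells (-0.64 ± 0.084, adjusted p = 0.000981). The brightest probe set of Rictor did not pass (0.22 ± 0.074, adjusted p = 0.0899), and it did when WT Th1 replicate 1 (0.0414) or 2 (0.0413) was left out. Of its 4 other probe sets 1 was called higher in Tfh (0.51 ± 0.076, adjusted p = 0.00357) and 3 lay between -0.20 and -0.07 without a call.

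Of 21 sterol and fatty acid synthesis genes, with a median of -0.01, 10 had an unadjusted p under 0.05. Limma called 4 higher in Th1 and 1 in Tfh cells, against 6.45% and 3.27% of all genes. They included Sc5d, a sterol desaturase gene (-0.41), and Scd2, a fatty acid desaturase gene (0.36). Without Rictor-null Th1 replicate 1 the counts were 1 and 1, and with a common median 2 and 1. By the brightest probe set, limma called 0 of 24 oxidative phosphorylation genes, 0 of 13 BCL2 family genes and 0 of 19 ferroptosis and antioxidant genes, against 9.72% of all genes. Unadjusted p values under 0.05 were found for 1, 4 and 4 of them. Other probe sets were called for Bcl2 (0.38), which promotes survival, for Bcl2l11 (0.25) and Bik (-0.41), which promote cell death, and for Nfe2l2 (-0.26), a regulator of antioxidant genes. Bcl2 was called with a common median per array (0.23, adjusted p = 0.0388) and without Rictor-null Tfh replicate 1 (0.26, adjusted p = 0.0278). Of 18 glycolysis genes 1 was higher in Th1 cells, the glucose transporter gene Slc2a3 (-0.33), whose call ended without Rictor-null Th1 replicate 1 (0.0899); with a common median per array the counts turned to 2 higher in Tfh and 1 in Th1. Of 23 cell cycle genes 1, Birc5, was called (0.23, adjusted p = 0.0476), and this call ended under most alternatives. Interferon-stimulated genes were higher in Tfh in 3 and in Th1 cells in 5 of 27, and with a common median in 4 and 3, so that list had no direction that held across scalings. Ifitm1 had 668.7 and 663.4 in Tfh and 284.7 and 290 in Th1 cells (1.13 ± 0.065, adjusted p = 3.96e-06).

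The same lineage comparison in WT cells, whose arrays entered the same fit and so shared its estimate of the spread, called 1653 genes (14.7%), 347 (3.09%) higher in Tfh and 1306 (11.6%) higher in Th1 cells. The share of these calls higher in Tfh was 21%, 40.3% after quantile normalization and 70.7% with a common median. Called with the same direction in both genotypes were 406 genes (3.62% of those tested), which is 37.2% of the genes called in Rictor-null and 24.6% of those called in WT cells. They were 104 genes higher in Tfh and 302 higher in Th1. In opposite directions 33 were called. The WT arrays of both lineages did not overlap for 67.7% of all genes. Of the 30 genes with the largest difference in Rictor-null cells, 14 of 15 higher in Tfh and 11 of 15 higher in Th1 were also called in WT cells. The other 5 were Taf7, Fgl2, Tmem176a, Cxcl3 and Tmem64. Genes higher in WT Tfh cells had a median of 0.28 in WT and 0.11 in Rictor-null cells, with 270 of 347 positive there. Genes higher in Rictor-null Tfh cells had a median of 0.34 in Rictor-null and 0.09 in WT cells, with 256 of 367 positive there. Genes higher in WT Th1 cells had medians of -0.28 and -0.10, and those higher in Rictor-null Th1 cells had -0.31 and, in WT cells, -0.18. Each set was chosen on the genotype whose median is given first. The WT count was 196 and 270 when WT Tfh replicate 1 or 2 was left out and 382 and 646 when WT Th1 replicate 1 or 2 was, and the shared count 140, 160, 192 and 245 in this order. Without Rictor-null Tfh replicate 1 or 2 the WT count was 2669 or 2656, and without Rictor-null Th1 replicate 1 or 2 the shared count was 202 or 256.

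**Figure D3:**
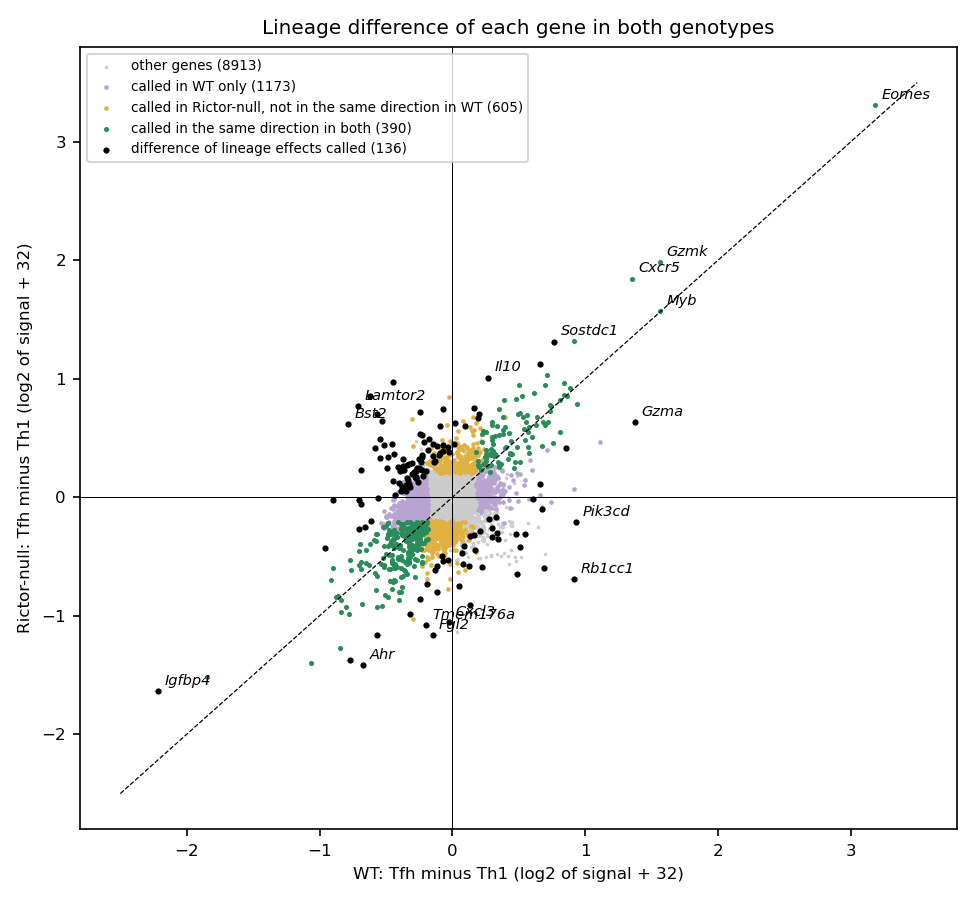
Tfh minus Th1 difference in log2(signal + 32) of each of 11217 genes in WT (x axis) and Rictor-null cells (y axis), with equal differences on the dashed line. Green points are genes called with the same direction in both genotypes, yellow and violet points those called otherwise, and black points the 136 genes whose difference between genotypes was called, which are left out of the other colours.

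For several leading genes the lineage difference was called in both genotypes and its difference between genotypes was not. Eomes differed by 3.18 ± 0.075 in WT cells, with 912.4 and 832.7 against 66.86 and 68.32, and the difference between genotypes was 0.13 ± 0.106 (adjusted p = 0.511). Its other probe set, however, gave a larger lineage difference in Rictor-null cells, by 0.64 (adjusted p = 0.00975), so the probe sets of Eomes disagree on this point. Myb differed by 1.56 in WT cells (difference between genotypes 0.01 ± 0.080, adjusted p = 0.963), Pou2af1 by 0.88 (0.04 ± 0.106), Slamf7 by 0.81 (0.01 ± 0.094) and Sh2d1a by 0.69 (-0.05 ± 0.080). L1cam (-0.84 in WT) and Il2 (-0.80 in WT) differed between genotypes by -0.13 ± 0.100 and -0.13 ± 0.088. Cxcr5, with 1.36 in WT cells, Bcl6, with 0.48, and Pdcd1, with 0.39, had larger values in Rictor-null cells, but the differences of 0.49 ± 0.121, 0.35 ± 0.078 and 0.43 ± 0.099 did not pass (adjusted p = 0.0883, 0.0628 and 0.069).

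The difference of the lineage effects, Rictor-null minus WT, was called for 136 genes (1.21%), 92 more positive and 44 more negative in Rictor-null cells. Of the 651 genes called in Rictor-null and not in WT cells, 46 passed this test, so for the other genes the lineage difference is not shown to depend on genotype. The count was 27 without WT Tfh replicate 1, 30 without WT Tfh replicate 2, 29 without Rictor-null Th1 replicate 1, 47 without Rictor-null Th1 replicate 2, 77 without WT Th1 replicate 1, 60 without WT Th1 replicate 2 and 89 without Rictor-null Tfh replicate 2. It was 1602 without Rictor-null Tfh replicate 1 and 65 with no filter. Among 29 named genes with a called difference, those of Fgl2, Il10, Tmem176a, Klre1, Bst2, Lamtor2, Swi5, Dnajc7 and Btg2 stayed called under every alternative that gave them a value. Of these, Fgl2 and Klre1 passed the signal filter only through Rictor-null arrays. Another probe set of Btg2 was called higher in Rictor-null Th1 cells (-0.23, adjusted p = 0.0383) and gave a difference between genotypes of 0.01.

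Some of these genes separated the lineages in Rictor-null cells and little in WT cells. Fgl2, whose secreted product resembles fibrinogen, had 57.06 and 48.29 in Rictor-null Tfh, 142.7 and 173.6 in Rictor-null Th1, 14.04 and 14.84 in WT Tfh and 17.61 and 21.43 in WT Th1 cells. Rictor-null Th1 cells were highest and both WT groups low (difference between genotypes -1.02 ± 0.118, adjusted p = 0.00367). The WT signals of Fgl2 lay under the array median (35.7 to 37.7), so it passed the filter only through Rictor-null arrays. Its WT lineage difference was taken near the floor. The chemokine gene Cxcl3 had 10.03 and 10.46, 56.38 and 54.92, 3.09 and 2.54, and 3.34 and 3.45 in the same order of groups. Its signal lay above the median of an array in Rictor-null Th1 cells only, so it passed the filter through the group where it was high, and its difference is a description with no support from the test. Tmem176a was at 104.5 and 93.19 in WT Tfh and 119.7 and 116.4 in WT Th1 cells, so the separation seen in Rictor-null cells was larger (-0.88 ± 0.111, adjusted p = 0.00442). Il10, an inhibitory cytokine gene, had 154.2 and 146 in Rictor-null Tfh, 60.64 and 56.36 in Rictor-null Th1, 47.23 and 51.32 in WT Tfh and 37.65 and 33.26 in WT Th1 cells. It was highest in Rictor-null Tfh cells (0.74 ± 0.088, adjusted p = 0.00378).

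Ahr, Ccr9 and Sostdc1 were called in the same direction in both genotypes with a larger value in Rictor-null cells. Their differences between genotypes were -0.75 ± 0.100, -0.61 ± 0.083 and 0.55 ± 0.082 (adjusted p = 0.00564, 0.0063 and 0.0118). The WT signals of Ccr9 (19.41 to 30.9) lay under the array median. Ccr9 thus passed the filter only through Rictor-null arrays, and its WT lineage difference was taken near the floor. Each of these 3 calls ended without WT Tfh replicate 2 and without Rictor-null Th1 replicate 1, and those of Ccr9 and Sostdc1 also without WT Tfh replicate 1, with adjusted p up to 0.0544, 0.0615 and 0.0911.

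**Figure D4:**
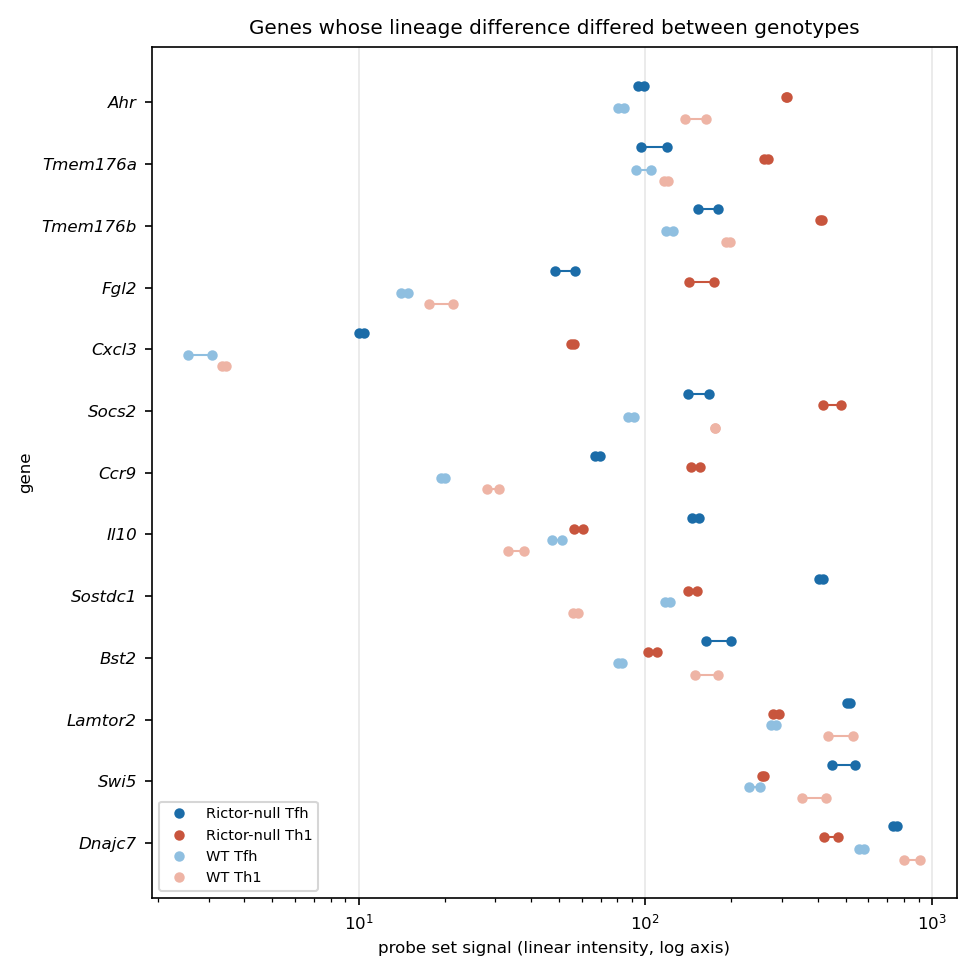
Probe set signal (linear intensity, log axis) on all 8 arrays of 13 genes whose lineage difference differed between genotypes, with a line between the 2 arrays of a group. Fgl2, Cxcl3 and Tmem176a are highest in Rictor-null Th1 cells, Il10 and Sostdc1 in Rictor-null Tfh cells, and Bst2, Lamtor2, Swi5 and Dnajc7 have opposite orders of Tfh and Th1 in the 2 genotypes.

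Of 18 cytotoxic granule genes 2, Gzma and Gzmb, had a called difference between genotypes, against 1.21% of all genes. Each had the smaller lineage difference in Rictor-null cells. Gzma differed by 0.63 in Rictor-null and by 1.38 ± 0.069 in WT cells, where the signals were 300.4 and 287.7 in Tfh and 99.1 and 87.85 in Th1 (difference between genotypes -0.75 ± 0.097, adjusted p = 0.00499, and 0.0503 without WT Tfh replicate 1). Gzmb, Klrg1 and Cx3cr1 were named after their values were seen. Gzmb, the granzyme B gene, had 271.8 and 297.7 in Rictor-null Tfh, 257.8 and 263.1 in Rictor-null Th1, 156.6 and 161.3 in WT Tfh and 90.49 and 87.02 in WT Th1 cells (-0.55 ± 0.085, adjusted p = 0.0138). Klrg1, a receptor of terminally differentiated T cells, had 329.4 and 374.3, 336.6 and 372.5, 142.3 and 140.1, and 82.58 and 80.51 in the same order (-0.62 ± 0.100, adjusted p = 0.0165). In Rictor-null cells the arrays of both lineages overlapped for Klrg1 and in WT cells they did not. Klre1 was higher in Th1 among Rictor-null cells and higher in Tfh among WT cells (26.34 and 32.03 against 12.18 and 9.61), a difference of -0.93 ± 0.111 (adjusted p = 0.00378). These WT signals lay under the array median (35.7 to 37.7), so Klre1 passed the filter only through Rictor-null arrays. Its order in WT cells was taken near the floor. For Cx3cr1, the fractalkine receptor gene, the difference of -0.53 ± 0.132 did not pass (adjusted p = 0.0922).

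**Figure D5:**
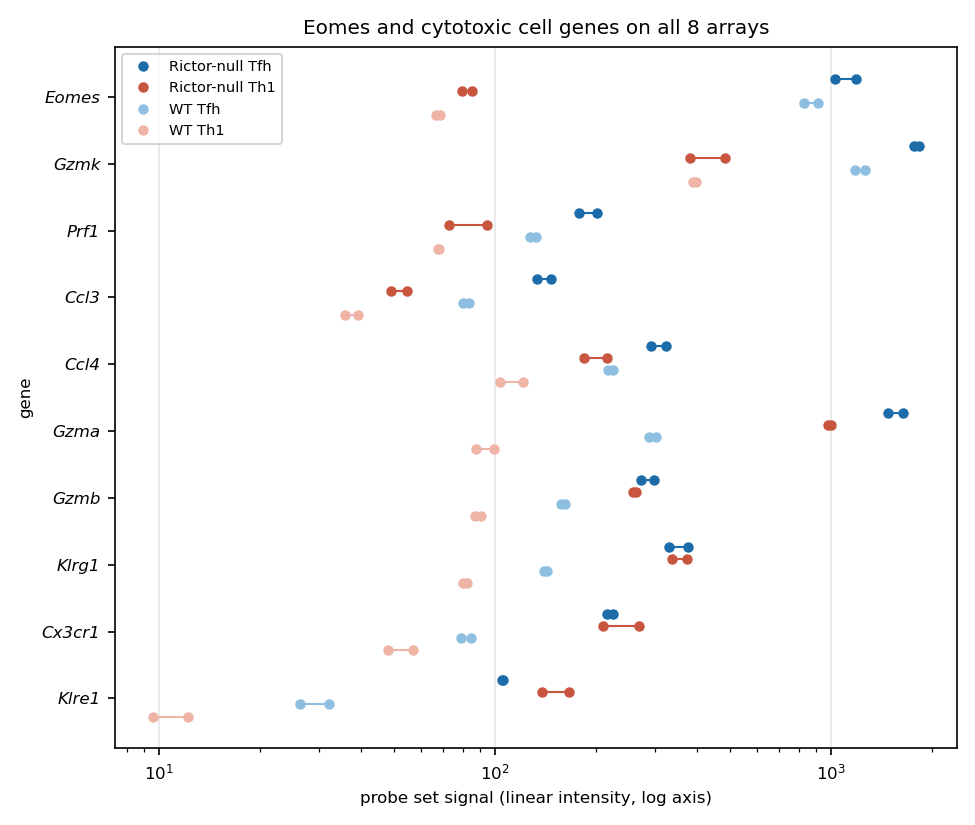
Probe set signal (linear intensity, log axis) of Eomes and 9 genes of cytotoxic cells on all 8 arrays, with a line between the 2 arrays of a group. Eomes, Gzmk, Prf1 and Ccl3 separate Tfh from Th1 in both genotypes, while Gzmb and Klrg1 lie close together in Rictor-null Tfh and Th1 cells and apart in WT cells.

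A further set had opposite orders of the lineages in the 2 genotypes. Bst2, the tetherin gene, had 199.2 and 163.3 in Rictor-null Tfh, 110 and 102.7 in Rictor-null Th1, 80.57 and 83.19 in WT Tfh and 149.1 and 180.1 in WT Th1 cells (difference between genotypes 1.40 ± 0.129, adjusted p = 0.000801). Swi5, a DNA repair gene, gave 1.48 ± 0.137 and the co-chaperone gene Dnajc7 1.27 ± 0.105 (adjusted p = 0.000801 and 0.000559). These 3 genes were high in Rictor-null Tfh and WT Th1 cells and were each measured by 1 probe set that passed the filter. The arrays lowest on the third principal component came from the same groups (-12.38 and -6.49). Whether that component is linked to these genes was not tested. Lamtor2, which encodes a part of the lysosomal Ragulator complex that recruits mTOR complex 1, gave 1.48 ± 0.114 (adjusted p = 0.000379) with its brightest probe set and -0.04 (adjusted p = 0.857) with another. Taf7 (1.41) and Pdia3 (1.18) in this direction, and Rb1cc1 (-1.60), Cab39 (-1.28), Pik3cd (-1.14) and Usp25 (-1.14) in the other, also rested on the brightest probe set. Their other probe sets gave -0.13 and -0.09, and 0.13, -0.05, 0.11 to 0.16 and 0.07, none called. For these 7 genes, as for Btg2, the probe sets of 1 gene therefore disagree.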

How the data were processed

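Gene expression was measured with Affymetrix arrays on RNA of sorted memory CD4 T cells, with 100 ng of RNA as input to each. The authors deposited an already summarised and scaled intensity, on a linear scale, for each of 45037 probe sets. The submitters' processing notes name MAS5 and RMA with no version, role or order, so the scaling and background correction could not be varied from the start. Arrays have no read depth, and their number, 2 per group, sets the precision.

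Values were analysed as log2(signal + 32). Of the probe sets 34945 had 1 gene symbol, 932 several and 9160 none. Probe sets that exceeded the array median on 2 or more of 8 arrays were kept (23725, of which 19671 with 1 symbol), and the brightest per gene gave 11217 genes. Positions and names come from RefSeq (GRCm38). The linear model (limma 3.58.1, R 4.3.3) had 1 mean for each group and used all 8 arrays (residual degrees of freedom 4, prior 6.7), with Benjamini-Hochberg adjustment over all genes. An exact permutation of 2 against 2 arrays cannot give p below 0.333 and was not used. The method was also run on simulated data with equal spread in all groups and independent arrays. The groups here vary unequally, so that run does not check the p values of these data. Figures were drawn with matplotlib 3.10.9.

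Named were the 15 genes with the largest difference in each direction among those called whose arrays did not overlap, the 6 largest differences between genotypes in each direction, the 5 members with the lowest p in each gene list, all lineage regulators, the brightest 3 markers of each other cell type, and Rictor. Clone, model and receptor segment names were left out. Cd200, Il4, P2rx7, Cd83, Icos, Ifng, Cxcr3, Il17a, Ccr6, Socs5, Flt3, Ctsc, Gzmb, Klrg1, Cx3cr1 and markers below the filter were named after their values were seen. The comparison and the gene lists were chosen with earlier results of these data known. The labels do not say whether same-numbered replicates share more than a number, so no pairing was used in the reported values. Deviations of replicate 1 in Rictor-null Tfh and Th1 correlated at -0.278. Over all pairs of groups this ran from -0.514 (Rictor-null Tfh with WT Th1) to 0.276 (Rictor-null Tfh with WT Tfh). These values do not show whether arrays of different groups were linked. Alternatives covered scaling, filter, pseudocount, probe set, weights, trend, arrays in the fit, a replicate block and each array left out.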

Additional observations from a re-analysis of the deposited data

Results flagged for a closer look

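For 29 named genes the Tfh minus Th1 difference of Rictor-null cells was set apart from that of WT cells by the test of the difference itself (adjusted p under 0.05, limma), and for 15 of them the sign also differed. In log2, Rictor-null minus WT, the negative differences were those of Rb1cc1 (-1.60), Cab39 (-1.28), Pik3cd (-1.14), Usp25 (-1.14), Cxcl3 (-1.03), Fgl2 (-1.02), Klre1 (-0.93), Tmem176a (-0.88), Gzma (-0.75), Ahr (-0.75), Pparg (-0.68), Ccr9 (-0.61), Socs2 (-0.60), Tmem176b (-0.60) and Itgb1 (-0.50). The positive differences were those of Ifitm1 (0.47), Cebpa (0.47), Sostdc1 (0.55), Prkcq (0.57), Igfbp4 (0.57), Il17ra (0.59), Il10 (0.74), Btg2 (0.99), Pdia3 (1.18), Dnajc7 (1.27), Bst2 (1.40), Taf7 (1.41), Swi5 (1.48) and Lamtor2 (1.48). Igfbp4 was higher in Th1 cells in both genotypes, so its positive value is a smaller lineage difference in Rictor-null cells. Over the alternatives the highest adjusted p was 0.237 for Rb1cc1, 0.235 for Pik3cd, 0.211 for Usp25, 0.207 for Cab39 and Ifitm1, 0.18 for Igfbp4 and 0.173 for Socs2. Cxcl3 and Pparg passed the signal filter only through the Rictor-null Th1 arrays, where they were high, so their differences are descriptions. Cebpa passed it only through the Tfh arrays of both genotypes. Fgl2, Klre1 and Ccr9 passed it only through Rictor-null arrays of both lineages, with WT signals under the array median. Groups of 2 arrays are too small for a search for deviating arrays by their gap to the others.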

How the results depend on the processing

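Of 126 named genes called in Rictor-null cells, 81 stayed called under all 21 alternatives that gave them a value, and none reversed. Leaving out Rictor-null Th1 replicate 1 ended 35 of these calls and Rictor-null Th1 replicate 2 ended 30. Genes called numbered 387 to 1641 in Rictor-null cells (1090 with all arrays), 196 to 2669 in WT cells (1653), 27 to 1602 for the difference of lineage effects (136) and 140 to 485 in both genotypes (406) when each array was left out in turn. In WT cells the count was 1007 after quantile normalization, and it was 2592 in a fit to the 4 WT arrays and 3175 with array weights; in Rictor-null cells these last settings gave 595 and 660. With no filter 65 differences of lineage effects were called. With the replicate number as a block, 796 genes were called in Rictor-null and 1003 in WT cells, 91 for the difference and 285 in both genotypes. With the numbers of Rictor-null Th1 exchanged, an alternative chosen after the data were seen, the block gave 901, 1280, 119 and 335. Without both arrays lowest on the third component, also chosen later, the counts were 1147, 1479, 156 and 438. The cause of these shifts was not tested. Other settings kept these counts within 1.5 times. A group left with 1 array was assumed to vary like the other groups.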
